A study of Mus musculus with 23 samples.

Results

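Nodal signalling was examined through 10 genes in the mouse embryo just after implantation: the ligand Nodal, its co-receptor Tdgf1 (Cripto), the proprotein convertases Pcsk6 and Furin, the secreted inhibitors Lefty1 and Lefty2, the receptors Acvr1b and Acvr2b, and the transducers Smad2 and Foxh1. They were taken by name from the 23725 lines of the deposited count table, 10 of 10 were present, and 10 of 10 passed the filter on low counts in every fit. The 23 libraries are pools of dissected tissue of the E6.25 stage, either extra-embryonic tissue (ExE) or epiblast (E, the tissue that forms the embryo proper). Embryos were homozygous (Tet1gt/gt) or heterozygous (Tet1gt/wt) for a gene trap in Tet1, whose protein oxidises 5-methylcytosine in DNA, or wild type (wt). The groups were homozygous ExE (3 pools, since 1 was lost), heterozygous ExE (4), wt ExE (4), homozygous E (4), heterozygous E (4) and wt E (4). Each pool joined lysates of 6 embryos or more, sorted by genotype after dissection and drawn from 2 or 3 litters, so that a value is an average over embryos. No other allele or treatment is given in the labels, the trap is present in every cell of the embryo, and the strain of the parents is not stated in the labels. Pool numbers are those of the labels.

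Nodal is a secreted ligand of the TGF-beta family that keeps the epiblast pluripotent, patterns the visceral endoderm around it and later induces the primitive streak. It is made as a precursor, and convertases made in the extra-embryonic ectoderm, Furin and Pcsk6 (PACE4) among them, cleave it to the mature form. The ligand binds type I and type II activin receptors together with the co-receptor Tdgf1, the receptors phosphorylate Smad2, and Smad2 acts with Smad4 and the forkhead factor Foxh1 on target genes. Nodal itself, Lefty1 and Lefty2 are among those targets, and the Lefty proteins, which block Nodal, close a negative feedback loop.

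The sequences just before and after the start site differed among members in their content of CpG, the dinucleotide whose methylation TET1 acts on. A RefSeq promoter of 300 bases (GRCm38.p6) was at hand for 6 of the 10 members, Nodal, Tdgf1, Pcsk6, Furin, Acvr1b and Acvr2b. The promoters of Nodal, Tdgf1 and Pcsk6 are printed because they show the CpG-poor and the CpG-rich end of that range. Capitals mark each CG. That of Nodal lies at chr10:61417722-61418021 on the plus strand, that of Tdgf1 at chr9:110946109-110946408 on the minus strand, and that of Pcsk6 at chr7:65861886-65862185 on the plus strand.
Nodal: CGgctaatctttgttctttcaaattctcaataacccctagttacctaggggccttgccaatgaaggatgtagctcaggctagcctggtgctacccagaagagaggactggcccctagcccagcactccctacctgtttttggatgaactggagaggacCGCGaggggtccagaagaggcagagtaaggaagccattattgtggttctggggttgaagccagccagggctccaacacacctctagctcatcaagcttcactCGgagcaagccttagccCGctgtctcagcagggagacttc
Tdgf1: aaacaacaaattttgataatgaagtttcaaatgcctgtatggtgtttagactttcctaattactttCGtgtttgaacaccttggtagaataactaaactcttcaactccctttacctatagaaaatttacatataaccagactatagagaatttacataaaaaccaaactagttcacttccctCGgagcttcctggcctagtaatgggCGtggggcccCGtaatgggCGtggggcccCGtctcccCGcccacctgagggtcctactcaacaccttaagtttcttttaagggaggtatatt
Pcsk6: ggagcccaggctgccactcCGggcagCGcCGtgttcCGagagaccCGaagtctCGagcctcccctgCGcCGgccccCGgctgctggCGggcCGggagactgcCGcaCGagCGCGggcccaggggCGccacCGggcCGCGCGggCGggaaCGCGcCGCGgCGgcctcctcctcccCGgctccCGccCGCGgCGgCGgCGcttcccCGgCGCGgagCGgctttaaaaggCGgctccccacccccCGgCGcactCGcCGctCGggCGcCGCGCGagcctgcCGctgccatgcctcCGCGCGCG
The Nodal promoter held 5 CpG and the Tdgf1 promoter 7, against a median of 7 over all 32851 promoters of the table. The Pcsk6 promoter held 52, a number reached or passed by 0.575% of all promoters. Furin, with 51 at one start and 7 at another, and Acvr1b, with 51, were CpG-rich too, and Acvr2b held 27. This is a description of sequence, and no methylation was measured in these files.

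Total counts per library ranged from 4912215 to 9494814, so that a count of 0 allows up to 3 counts, or 0.316 to 0.611 CPM (counts scaled to a common library size), for counting error only. Levels below are CPM scaled by the TMM method, which corrects for differences in RNA composition. Tet1 itself did not overlap between homozygous and wt pools, at 21.5 to 37.7 CPM against 77.0 to 110 CPM in ExE and 55.2 to 113 CPM against 127 to 197 CPM in E. The tissue labels held, with the epiblast markers Pou5f1, Nanog, Fgf5, Utf1, Otx2, Pim2 and Slc7a3 summing to 545 to 1940 CPM in ExE and 3260 to 4730 CPM in E. None of the 7 averaged under 1 CPM in an ExE group, and their level varied widely among ExE pools. The 10 extra-embryonic ectoderm markers, Elf5 among them, summed to 1420 to 2910 CPM in ExE and 9.66 to 539 CPM in E. Their level thus varied widely among E pools. In 3 libraries, homozygous ExE pool 3, homozygous E pool 3 and heterozygous E pool 4, levels leaned towards short, GC-rich transcripts. The deviation from the mean over all libraries of the same tissue had a slope of -0.47 to -0.39 on log2 length, against -0.07 to 0.17 in the other 20.

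Compared per kilobase of exon, Tdgf1 and Foxh1 were the most abundant members in E. In ExE, Foxh1, Acvr2b and Pcsk6 were. In E (n = 12 pools) the order of the TMM-scaled CPM per kilobase was Tdgf1 at 94.2 ± 22.7 (SD), Foxh1 at 89.0 ± 17.0, Acvr2b at 39.6 ± 8.54, Nodal at 13.3 ± 4.74, Smad2 at 8.76 ± 1.95, Lefty2 at 8.13 ± 5.19, Pcsk6 at 4.44 ± 1.88, Lefty1 at 4.20 ± 3.05, Furin at 2.98 ± 0.945 and Acvr1b at 0.570 ± 0.247. The gaps from Foxh1 to Acvr2b, from Acvr2b to Nodal and from Furin to Acvr1b exceeded the larger SD of the 2 neighbours. The other neighbours in that order did not differ beyond their spread. In ExE (n = 11 pools) the order of the same quantity was Foxh1 at 31.1 ± 13, Acvr2b at 27.9 ± 9.73, Pcsk6 at 26.2 ± 6.56, Tdgf1 at 15.1 ± 11.7, Smad2 at 9.09 ± 1.81, Furin at 5.01 ± 1.75, Nodal at 3.45 ± 3.97, Lefty1 at 1.52 ± 1.91, Lefty2 at 0.940 ± 0.905 and Acvr1b at 0.768 ± 0.345. There the gap from Smad2 to Furin exceeded the larger SD, and the other neighbours lay within it. Acvr1b, a type I receptor for Nodal and activin, had the lowest mean in E. In ExE it lay within the spread of both Lefty genes, above Lefty2 in homozygous pools (0.367 against 0.302) and above both Lefty genes in heterozygous pools.

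**Figure D1:**
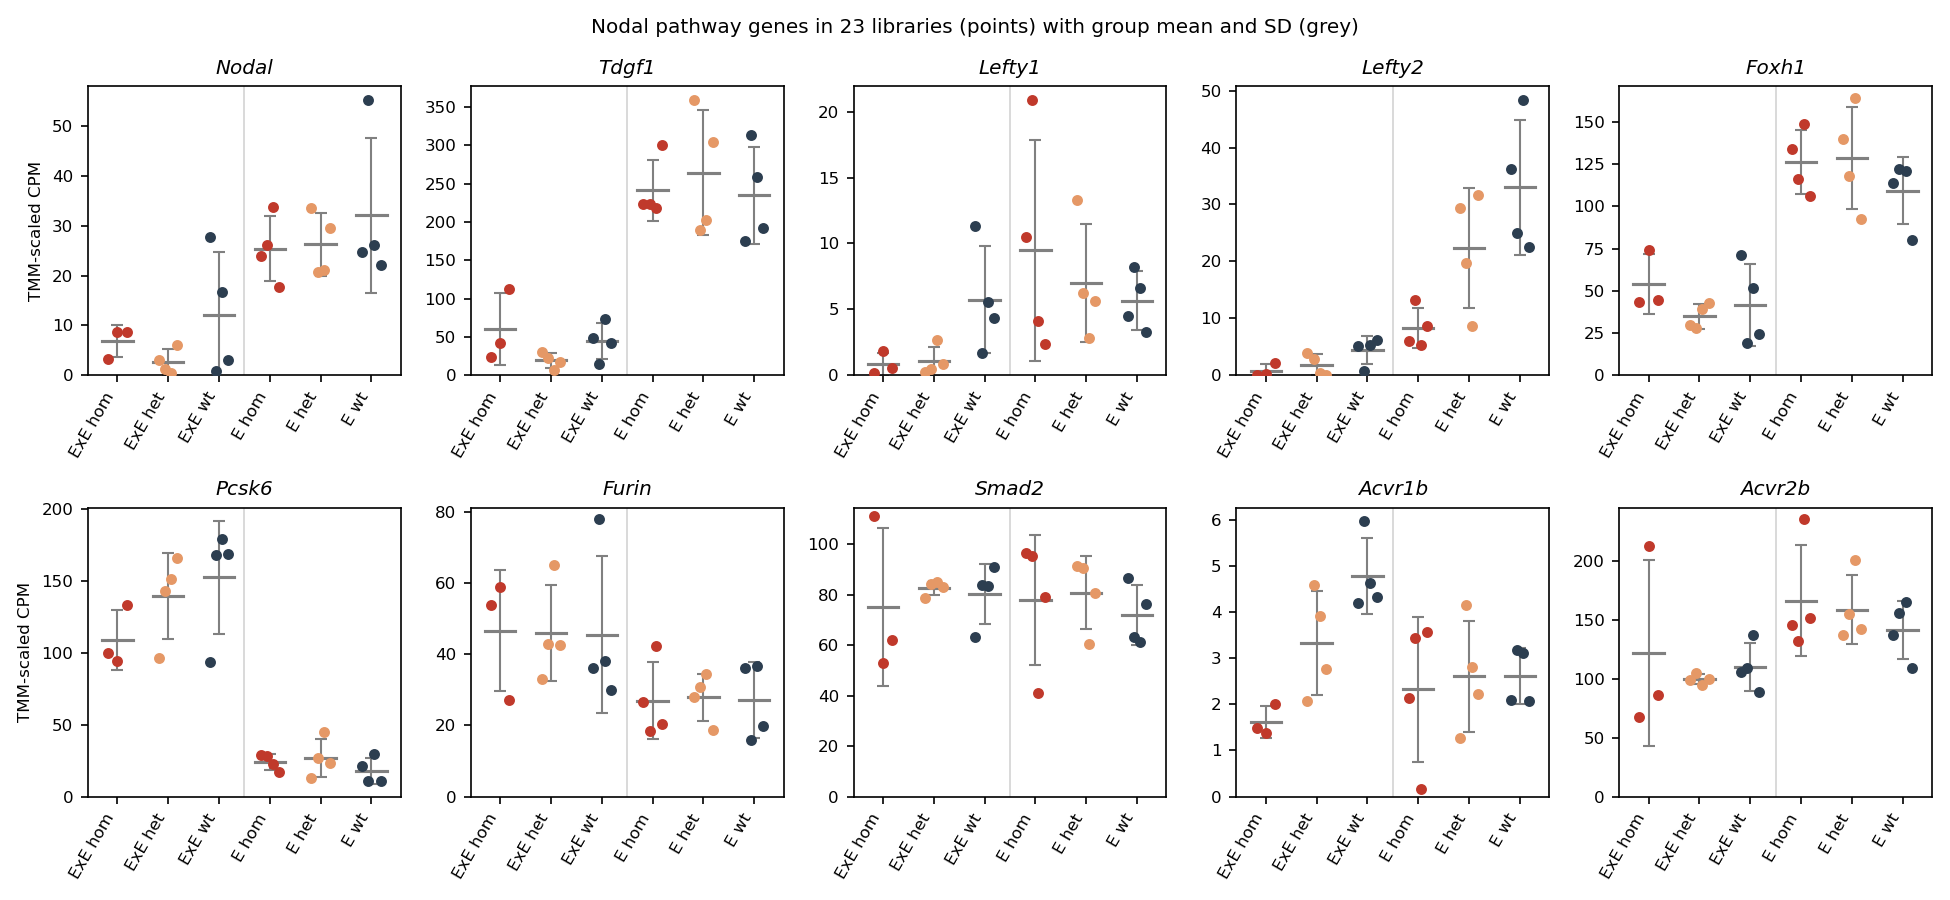
TMM-scaled CPM of the 10 genes (vertical axes, each with its own scale) in the 3 homozygous (hom), 4 heterozygous (het) and 4 wt ExE pools and the 4 homozygous, 4 heterozygous and 4 wt E pools; points are pools, grey bars the group mean ± SD. Lefty2 lies at 5.35 to 13.2 CPM in homozygous E against 22.5 to 48.4 CPM in wt E, and Pcsk6 at 93.7 to 179 CPM in ExE against 10.6 to 45.0 CPM in E.

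The tissue comparison asks where in the conceptus each component is made. In wt embryos the convertase Pcsk6 was higher in ExE, whereas the co-receptor Tdgf1, the inhibitor Lefty2 and the transducer Foxh1 were lower there than in E. These 4 of the 10 members passed the threshold, an adjusted p under 0.05 over 13595 genes, which 17.3% of all genes passed. Of the 10, 1 was higher (9.28% of all genes) and 3 were lower (7.98% of all genes). The median log2 fold change of ExE over E was -0.17 over the 10 members and -0.01 over all genes. In bulk tissue, fewer cells that make a transcript and less of it per cell cannot be told apart.

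Nodal was at 27.7, 0.775, 16.7 and 3.11 CPM in wt ExE pools 1, 2, 4 and 5, against 24.7, 55.3, 26.2 and 22.2 CPM in wt E pools of those numbers. ExE pool 1 lay above 3 of the E pools, so the groups overlapped, and the ExE pools spread 35.8-fold, from 7 counts in pool 2 to 231 in pool 1. The log2 fold change was -1.41 ± 0.70 (SE, edgeR adjusted p = 0.181). Without ExE pool 1 it was -2.22 (edgeR adjusted p = 0.044), and limma-voom called it on all libraries at -2.40 (adjusted p = 0.0103).

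Among the wt ExE pools, those with more Nodal were those with more of the epiblast marker Pou5f1. Pou5f1 was at 302, 19.6, 199 and 85.4 CPM in wt ExE pools 1, 2, 4 and 5, and at 629 to 834 CPM in wt E. Elf5, a marker of extra-embryonic ectoderm, was at 112, 220, 205 and 170 CPM in the wt ExE pools, lowest in pool 1. The part of epiblast RNA in these Nodal values was not tested. Over the 7 epiblast markers the summed level was 545 to 1940 CPM in homozygous, 554 to 827 CPM in heterozygous and 697 to 1710 CPM in wt ExE.

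In the other genotypes Nodal did not overlap between tissues. It was at 3.24, 8.65 and 8.68 CPM in homozygous ExE pools 1, 3 and 4, against 24.0, 26.1, 33.7 and 17.8 CPM in homozygous E pools 1 to 4. The log2 fold change was -1.89 ± 0.81 (SE, edgeR adjusted p = 0.113). It was at 3.07, 1.15, 0.335 and 6.07 CPM in heterozygous ExE pools 1, 2, 3 and 5, against 33.6, 20.8, 21.1 and 29.5 CPM in heterozygous E pools 2, 3, 4 and 5. That difference passed the threshold at -3.28 ± 0.77 (edgeR adjusted p = 0.00296), and its ExE values rest on 28, 8, 3 and 57 counts. The homozygous difference stood at the threshold in DESeq2 (adjusted p = 0.05, -1.93) and passed it with only those 2 groups in the edgeR fit (adjusted p = 0.0378).

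Tdgf1, the membrane-anchored co-receptor, fell in ExE in all 3 genotypes. It was at 23.8, 42.4 and 113 CPM in homozygous ExE pools 1, 3 and 4, against 223, 223, 218 and 301 CPM in homozygous E pools 1 to 4 (-2.01 ± 0.51 as log2 fold change and SE, edgeR adjusted p = 0.00947). In heterozygous pools it was at 30.5, 22.5, 7.14 and 17.5 CPM in ExE, against 360, 190, 203 and 305 CPM in E (-3.77 ± 0.49, edgeR adjusted p = 1.22e-05). In wt it was at 48.6, 14.6, 73.1 and 42.3 CPM in ExE, against 175, 313, 259 and 192 CPM in E (-2.39 ± 0.46, edgeR adjusted p = 0.00127). No ExE pool of any genotype reached an E pool. Of its 75-base windows, 5.99% also occur in the pseudogene Tdgf1-ps1, so a small part of its reads could have been assigned there.

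Pcsk6, one of the convertases that cleave the Nodal precursor, was the member that rose in ExE. It was at 99.6, 94.3 and 133 CPM in homozygous ExE pools 1, 3 and 4, against 28.6, 28.3, 22.6 and 16.8 CPM in homozygous E pools 1 to 4 (2.18 ± 0.37 as log2 fold change and SE, edgeR adjusted p = 0.000522). In heterozygous pools it was at 96.7, 143, 151 and 166 CPM in ExE, against 12.7, 26.6, 45.0 and 23.6 CPM in E (2.37 ± 0.35, edgeR adjusted p = 4.18e-05). In wt it was at 93.7, 168, 179 and 169 CPM in ExE, against 21.2, 10.9, 29.4 and 10.6 CPM in E (3.08 ± 0.36, edgeR adjusted p = 1.8e-05). The groups lay apart in each genotype, and the wt difference ranked 13th by p over all genes tested. In wt ExE the lowest Pcsk6 level belonged to pool 1, the pool with the most Pou5f1. Homozygous and heterozygous ExE pool 1, at 99.6 and 96.7 CPM of Pcsk6, held little Pou5f1, 36.6 and 42.7 CPM. Among wt E pools, the 2 with more Pcsk6, pools 1 and 4, held Elf5 at 18.7 and 14 CPM. Pools 2 and 5 held Elf5 at 0.22 and 2.51 CPM. Homozygous E pool 2 went the other way, with 28.3 CPM of Pcsk6 and 0.52 CPM of Elf5. The part of extra-embryonic RNA in the E values was not tested.

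Furin, the other convertase, had a log2 fold change of ExE over E of 0.79 ± 0.38 (SE) in homozygous, 0.72 ± 0.36 in heterozygous and 0.75 ± 0.36 in wt embryos. None passed the threshold (edgeR adjusted p = 0.166, 0.147 and 0.159 in that order), and the pools overlapped, with 27.2 to 78.1 CPM in ExE and 16.0 to 42.3 CPM in E. The other convertases of the family in the list, Pcsk5 and Pcsk7, were tested and 0 of 2 were called in any genotype (16.8% to 27% of all genes were).

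Lefty2, an inhibitor that Nodal signalling induces, fell in ExE in all 3 genotypes. It was at 0, 0.228 and 2.14 CPM in homozygous ExE pools 1, 3 and 4, against 6.05, 13.2, 5.35 and 8.65 CPM in homozygous E pools 1 to 4 (-3.27 ± 1.01 as log2 fold change and SE, edgeR adjusted p = 0.0292). In heterozygous pools it was at 3.83, 2.87, 0.446 and 0 CPM in ExE, against 29.4, 19.7, 8.62 and 31.6 CPM in E (-3.65 ± 0.86, edgeR adjusted p = 0.00305). In wt it was at 5.16, 0.775, 5.34 and 6.22 CPM in ExE, against 36.3, 25.0, 48.4 and 22.5 CPM in E (-2.92 ± 0.82, edgeR adjusted p = 0.0164). The tissues did not overlap in any genotype. The wt call was lost without ExE pool 2, the pool with the least Lefty2 (edgeR adjusted p = 0.0532).

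Lefty1, its neighbour on chromosome 1 and a marker of the anterior visceral endoderm as well as a Nodal target, had no such gap in wt. It was at 11.3, 1.66, 5.58 and 4.32 CPM in wt ExE, against 4.47, 8.24, 6.64 and 3.25 CPM in wt E, levels that overlapped throughout (log2 fold change 0.01 ± 0.76 SE, edgeR adjusted p = 0.995). Lefty1 was lower in homozygous ExE, at 0.135, 1.82 and 0.503 CPM, than in homozygous E, at 10.5, 20.9, 4.14 and 2.37 CPM (-3.63 ± 1.00, edgeR adjusted p = 0.0154). It was lower in heterozygous ExE too, at 0.219, 0.430, 2.68 and 0.852 CPM, against 13.3, 6.22, 2.81 and 5.64 CPM in heterozygous E (-2.72 ± 0.83, edgeR adjusted p = 0.0175). Both calls were lost with the pool number as a block, which pairs same-numbered E and ExE pools (-2.84 with edgeR adjusted p = 0.0789 in homozygous and -2.79 with 0.0512 in heterozygous embryos). The heterozygous call was also lost without E pool 2, ExE pool 1 or ExE pool 2 (edgeR adjusted p = 0.068, 0.054 and 0.0534). The homozygous values rest on 1, 8 and 4 counts in ExE.

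Foxh1, the DNA-binding partner of Smad2, was lower in ExE in all 3 genotypes. Its level was 43.2, 74.2 and 44.3 CPM in homozygous ExE, against 134, 116, 149 and 106 CPM in homozygous E (-1.23 ± 0.34 as log2 fold change and SE, edgeR adjusted p = 0.0169). In heterozygous embryos it was 29.4, 27.9, 39.3 and 42.6 CPM in ExE, against 140, 118, 164 and 92.7 CPM in E (-1.89 ± 0.32, edgeR adjusted p = 0.000145). In wt embryos it was 70.9, 19.3, 51.5 and 24.3 CPM in ExE, against 114, 122, 121 and 80.3 CPM in E (-1.40 ± 0.31, edgeR adjusted p = 0.00389). No ExE pool reached an E pool of its genotype, and among wt ExE pools the 2 highest, pools 1 and 4, were again those with the most Pou5f1. Homozygous ExE pool 3 and heterozygous ExE pool 5 had the most of both in their groups. Heterozygous ExE pool 3, with the least Pou5f1 (13.5 CPM), had the next most Foxh1 of its group, 39.3 CPM.

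Smad2, the transducer phosphorylated by the receptors, and the receptors themselves were not called between tissues. Smad2 had log2 fold changes of -0.05 ± 0.26 (SE) in homozygous, 0.03 ± 0.24 in heterozygous and 0.16 ± 0.24 in wt embryos, with 52.8 to 111 CPM in ExE and 41.2 to 96.5 CPM in E. Acvr2b, a type II receptor, was at 67.8, 213 and 86.1 CPM in homozygous ExE, against 146, 132, 236 and 152 CPM in homozygous E. It was at 99.4, 105, 95.2 and 99.7 CPM in heterozygous ExE, against 137, 155, 201 and 142 CPM in heterozygous E, and at 106, 109, 137 and 88.5 CPM in wt ExE, against 137, 156, 165 and 109 CPM in wt E. The tissues lay apart in heterozygous embryos, overlapped between 109 and 137 CPM in wt, and overlapped through ExE pool 3 in homozygous embryos. The log2 fold changes of Acvr2b stood at -0.45 ± 0.29, -0.67 ± 0.27 and -0.36 ± 0.27 in homozygous, heterozygous and wt embryos, with edgeR adjusted p = 0.307, 0.0674 and 0.387. With the pool number as a block it was called in homozygous (-0.69, edgeR adjusted p = 0.00947) and heterozygous embryos (-0.53, edgeR adjusted p = 0.023). Without homozygous ExE pool 3, a library with steep slopes, it was also called in homozygous embryos (-1.10, edgeR adjusted p = 0.0045). Acvr1b was at 4.20, 5.98, 4.63 and 4.32 CPM in wt ExE, against 2.10, 3.18, 3.12 and 2.07 CPM in wt E, groups that did not overlap (0.86 ± 0.60, edgeR adjusted p = 0.360). In E it was at 2.13, 3.43, 0.173 and 3.56 CPM in homozygous and 1.27, 4.15, 2.81 and 2.23 CPM in heterozygous pools. The wt E values rest on 16, 29, 23 and 14 counts, and the homozygous value of 0.173 CPM on 1 count.

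Over genotypes, 5 of the 10 members were called in homozygous embryos (16.8% of all genes), 6 in heterozygous (27% of all genes) and 4 in wt. In each, 1 was higher (9.12% of all genes in homozygous and 12% in heterozygous embryos). Lower were 4 in homozygous (7.66% of all genes) and 5 in heterozygous embryos (14.9% of all genes). The number of members whose groups did not overlap was 6 in homozygous (23.3% of all genes), 7 in heterozygous (29.7%) and 5 in wt (28%). The 4 called in wt were called in the same direction in the other 2 genotypes. The homozygous calls depended on single pools: without homozygous ExE pool 1, the pool with the least Pou5f1 of its group, only Pcsk6 of the 10 was called. Without homozygous ExE pool 4 those called were Tdgf1, Lefty2 and Pcsk6, and without homozygous E pool 2 they were Tdgf1, Foxh1 and Pcsk6. Without homozygous ExE pool 3 the Lefty2 call was lost (edgeR adjusted p = 0.0879).

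**Figure D2:**
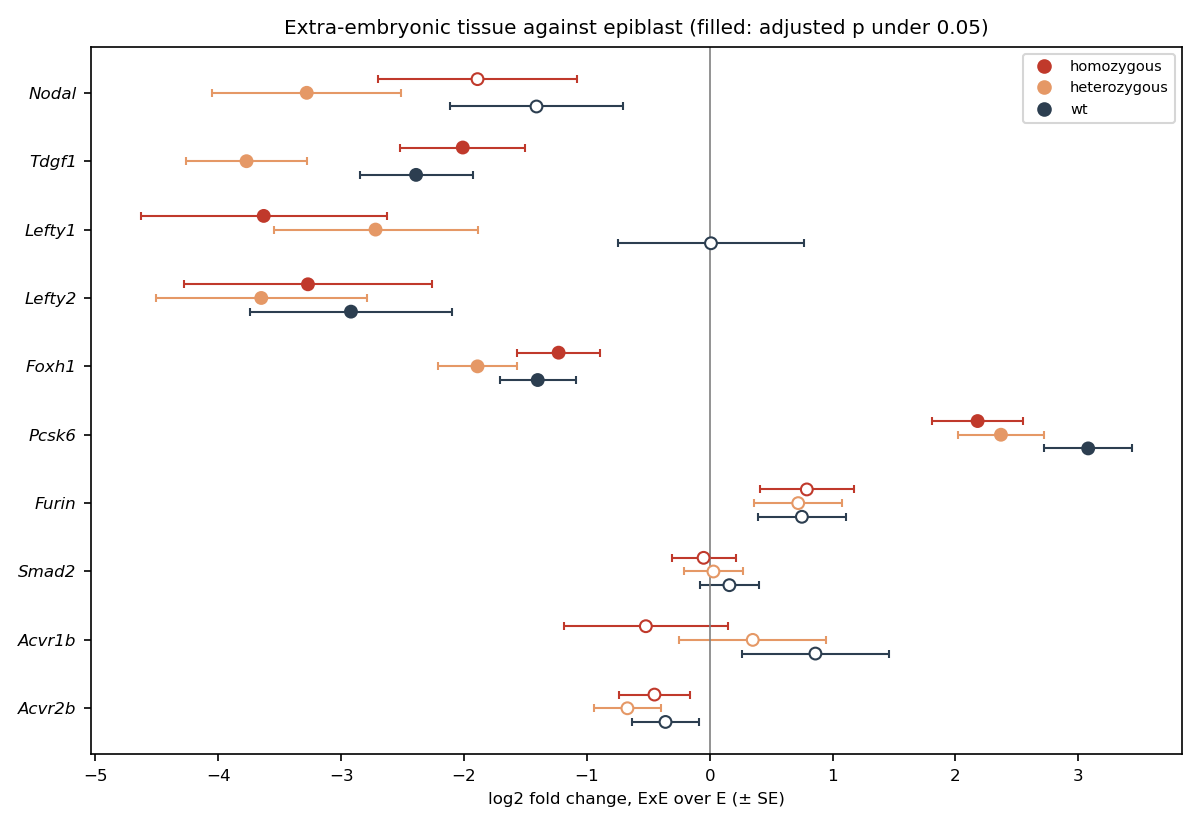
Log2 fold change of ExE over E (horizontal axis, ± SE) for each gene in homozygous, heterozygous and wt embryos, filled where the adjusted p was under 0.05. Pcsk6 lies right of 0, at 2.18 to 3.08, and Tdgf1, Lefty2 and Foxh1 left of 0 in all 3 genotypes, while Lefty1 lies at 0.01 in wt.

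The genotype comparison asks what the trap of Tet1 does to these components, and in E the member with the widest gap was Lefty2. It was at 6.05, 13.2, 5.35 and 8.65 CPM in homozygous E pools 1 to 4, at 29.4, 19.7, 8.62 and 31.6 CPM in heterozygous E pools 2 to 5, and at 36.3, 25.0, 48.4 and 22.5 CPM in wt E pools 1, 2, 4 and 5. All 4 homozygous pools lay below all 4 wt pools, and the heterozygous pools overlapped both. The homozygous mean was 25.2% ± 10.8 (SD, n = 4) and the heterozygous mean 67.6% ± 31.8 (SD, n = 4) of the wt mean.

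Lefty2 did not pass the threshold over all genes. The log2 fold change was -1.97 ± 0.43 (SE) in homozygous E, with an edgeR adjusted p = 0.488, and Lefty2 ranked 9 of 12405 genes by p. DESeq2 called it at the same fold change (adjusted p = 0.0069), and the adjusted p ran from 0.0069 to 1 over the alternatives. In heterozygous E it was -0.56 ± 0.41 (edgeR adjusted p = 0.982). Of the 10 members, 0 were called in homozygous E (0.0161% of all genes, 2 genes) and 0 in heterozygous E (0% of all genes). At an unadjusted p under 0.05 edgeR listed 520 genes in homozygous E and 298 in heterozygous E. Both are shares below 0.05 of the 12405 genes tested, and a share of 0.05 arises with no difference. Lefty2 was the 1 member whose homozygous and wt groups did not overlap, as in 4.43% of all genes, and 0 members did so in heterozygous E (2.88% of all genes). Both comparisons share the wt pools.

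Among markers of the early primitive streak, Mixl1 ran with Lefty2. Mixl1, a homeobox gene of the streak and a Nodal target, was at 9.75, 3.64, 1.38 and 8.99 CPM in homozygous E, at 39.5, 21.1, 18.6 and 24.2 CPM in heterozygous E, and at 126, 16.4, 94.2 and 4.88 CPM in wt E. The wt pools with the most Lefty2, pools 1 and 4, had the most Mixl1, and wt pools 2 and 5, with Mixl1 at 16.4 and 4.88 CPM, still held 25.0 and 22.5 CPM of Lefty2. Over the 12 E pools, Pearson's r of log2 CPM between Lefty2 and Mixl1 was 0.75, a description over pools that share genotype and dissection. For T (brachyury), the T-box factor of the streak, r was 0.32, and heterozygous pool 5, with the most Lefty2 of its group, had the least T, 5.64 CPM. All 9 streak and mesoderm markers together summed to 74.6 to 125 CPM in homozygous, 124 to 195 CPM in heterozygous and 59.9 to 321 CPM in wt E. Among them Mesp1, a regulator of early mesoderm, was at 0 in 3 of 4 homozygous pools and at 24.0, 0, 34.7 and 0.591 CPM in wt pools. Other markers of the list lay nearer to wt. In homozygous, heterozygous and wt E, Gsc averaged 6.90, 8.23 and 7.18 CPM, Fgf8 56.4, 79.9 and 67.5 CPM, and Wnt3 11.3, 16.4 and 17.5 CPM. With the mean level of all 9 streak and mesoderm markers as a covariate the Lefty2 difference was -1.75 (edgeR adjusted p = 0.924).

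Lefty1 showed another pattern in E. It was at 10.5, 20.9, 4.14 and 2.37 CPM in homozygous, 13.3, 6.22, 2.81 and 5.64 CPM in heterozygous and 4.47, 8.24, 6.64 and 3.25 CPM in wt pools, so the groups overlapped (0.77 ± 0.63 in homozygous and 0.32 ± 0.63 in heterozygous E, edgeR adjusted p = 0.961 and 0.988). Homozygous pools 1 and 2, the 2 highest of that group, also held the anterior visceral endoderm gene Cer1, a secreted inhibitor of Nodal, at 9.97 and 23.5 CPM. Cer1 was at 0 CPM in homozygous pools 3 and 4, at 0 CPM in all 4 heterozygous pools, and at 0 to 2.03 CPM in wt pools. The 5 anterior visceral endoderm markers, Cer1, Hhex, Dkk1, Sfrp5 and Lhx1, summed to 0 to 61.4 CPM in homozygous, 1.38 to 3.02 CPM in heterozygous and 2.96 to 19.2 CPM in wt E. Heterozygous pool 2, at 13.3 CPM of Lefty1 with Cer1 at 0, shows a high level without that marker. With the mean level of the visceral endoderm markers as a covariate, the homozygous difference in Lefty1 was 0.47 (edgeR adjusted p = 0.963).

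The balance of the Lefty genes differed among E pools. Lefty2 made up 36.5%, 38.7%, 56.4% and 78.5% of the summed Lefty1 and Lefty2 counts in homozygous E pools 1 to 4 (exact binomial 95% intervals from 28.7% to 44.8% for pool 1 up to 66.5% to 87.7% for pool 4). These intervals cover counting error only, since amplified reads are not independent molecules. The share was 68.9% to 84.9% in heterozygous and 75.2% to 89.0% in wt pools, and homozygous pool 4 fell within the range of wt. The summed level was 17.8 ± 11.3 CPM in homozygous, 29.3 ± 13.9 CPM in heterozygous and 38.7 ± 12.5 CPM in wt E (SD, n = 4 each), a log2 fold change of -1.10 in homozygous E (edgeR adjusted p = 0.961). The Lefty genes share 197 of their 75-base windows, 11.7% of those of Lefty1 and 7.77% of those of Lefty2, so single reads could be assigned to either. Relative to the ligand, the ratio of Lefty2 to Nodal counts was 0.252, 0.506, 0.159 and 0.486 in homozygous E pools 1 to 4, 0.877, 0.945, 0.408 and 1.07 in heterozygous E pools 2 to 5, and 1.47, 0.452, 1.85 and 1.01 in wt E pools 1, 2, 4 and 5. The lowest wt ratio belonged to pool 2, the pool with the most Nodal, and lay below the homozygous ratios of pools 2 and 4.

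**Figure D3:**
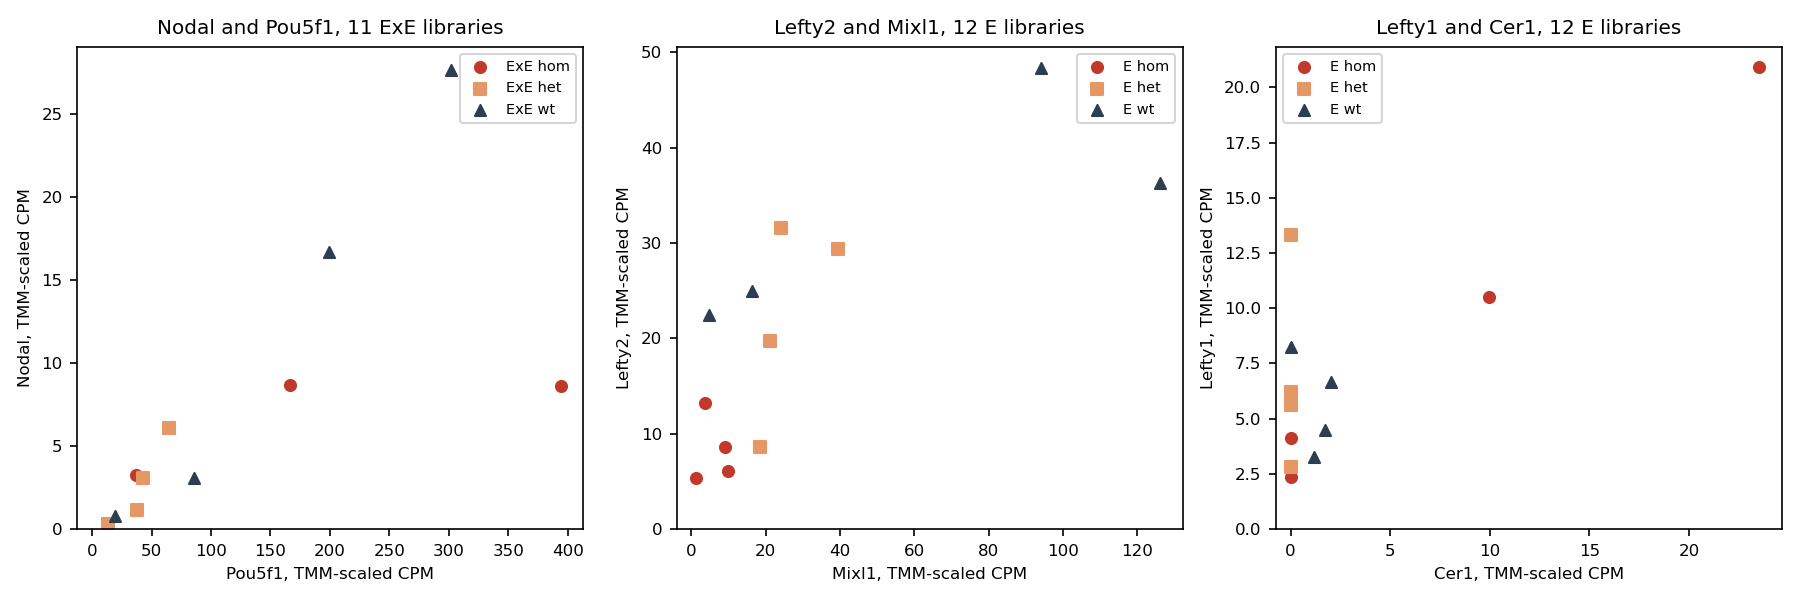
TMM-scaled CPM of Nodal against Pou5f1 in 11 ExE pools, of Lefty2 against Mixl1 in 12 E pools and of Lefty1 against Cer1 in 12 E pools; each point is a pool, coloured by genotype. Wt ExE pool 1 has 27.7 CPM of Nodal at 302 CPM of Pou5f1, and the homozygous E pools with 10.5 and 20.9 CPM of Lefty1 are those with 9.97 and 23.5 CPM of Cer1.

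The ligand and the other members overlapped between genotypes in E. Nodal averaged 25.4 ± 6.54 CPM in homozygous, 26.3 ± 6.32 CPM in heterozygous and 32.1 ± 15.6 CPM in wt E (SD, n = 4 each), and the wt spread came from pool 2, at 55.3 CPM against 22.2 to 26.2 CPM in the others. Tdgf1 averaged 241 ± 39.9, 265 ± 81.9 and 235 ± 63.6 CPM in homozygous, heterozygous and wt E. Their log2 fold changes in homozygous E were -0.34 ± 0.32 (SE) for Nodal and 0.05 ± 0.24 for Tdgf1. Those of Pcsk6, Furin, Foxh1, Smad2, Acvr2b and Acvr1b lay between -0.15 ± 0.74 (Acvr1b) and 0.43 ± 0.40 (Pcsk6). In heterozygous E the 10 members lay between -0.56 ± 0.41 (Lefty2) and 0.58 ± 0.40 (Pcsk6). The median over the 10 members was 0.09 in homozygous and 0.16 in heterozygous E, against 0.01 and 0 over all genes.

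In ExE, Acvr1b was the member whose homozygous and wt pools lay apart, and 0 of the 10 members passed the threshold in either comparison (0% of all genes in each). Acvr1b was at 1.48, 1.37 and 2.01 CPM in homozygous ExE pools 1, 3 and 4, at 2.08, 4.59, 3.91 and 2.77 CPM in heterozygous ExE pools 1, 2, 3 and 5, and at 4.20, 5.98, 4.63 and 4.32 CPM in wt ExE pools 1, 2, 4 and 5. Every homozygous pool was below every wt pool, as for 5.88% of all genes, and the heterozygous pools spanned the gap. These levels rest on 11, 6 and 16 counts in homozygous and 35, 54, 39 and 32 counts in wt pools. The log2 fold change was -1.55 ± 0.61 (SE, edgeR adjusted p = 0.576). It ran from -1.76 to -1.42 over the alternatives, with adjusted p from 0.21 to 1. At an unadjusted p under 0.05 edgeR listed 935 genes in homozygous ExE and 510 in heterozygous ExE. Of the 12355 genes tested, the first is a share above 0.05 and the second a share below it. DESeq2 called 12 and 25 genes in the same order, with 0 of the 10 members among them.

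Lefty1 was at 0.135, 1.82 and 0.503 CPM in homozygous, 0.219, 0.430, 2.68 and 0.852 CPM in heterozygous and 11.3, 1.66, 5.58 and 4.32 CPM in wt ExE. Each trap group overlapped wt through wt pool 2, at 1.66 CPM. The log2 fold changes were -2.89 ± 1.11 (SE, edgeR adjusted p = 0.552) in homozygous and -2.40 ± 0.94 (edgeR adjusted p = 1) in heterozygous ExE. Lefty2 stood at -2.39 (edgeR adjusted p = 0.756) and -1.25 in the same order, Nodal at -0.83 ± 0.99 and -2.15 ± 0.94 (0.22 in homozygous ExE with either marker covariate), and Tdgf1 at 0.43 ± 0.57 and -1.17 ± 0.54. At an unadjusted p under 0.05 stood Lefty1 in both comparisons, Acvr1b in homozygous ExE, and Nodal and Tdgf1 in heterozygous ExE, none past the adjusted threshold.

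The epiblast marker Pou5f1 varied among these ExE pools as well. Pou5f1 was at 36.6, 394 and 166 CPM in homozygous ExE pools 1, 3 and 4, at 42.7, 37.5, 13.5 and 64.9 CPM in heterozygous ExE pools 1, 2, 3 and 5, and at 302, 19.6, 199 and 85.4 CPM in wt ExE pools 1, 2, 4 and 5. All 4 heterozygous ExE pools lay below 3 of the 4 wt pools in Pou5f1, and 3 of the 4 did so in Nodal, at 0.335 to 3.07 CPM. The part of epiblast RNA in the heterozygous values was not tested. Homozygous ExE pool 3, a library with steep slopes, had 8.65 CPM of Nodal with 394 CPM of Pou5f1 and 19.8 CPM of Fgf5, a further epiblast marker, and wt ExE pool 1 had 27.7 CPM of Nodal with 302 CPM of Pou5f1 and 67.3 CPM of Fgf5. That homozygous pool also had the highest maternal decidua markers, 248 CPM summed over 5 genes against 3.32 to 15.5 CPM in wt ExE.

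The other members in ExE stayed within the spread between pools. Pcsk6 averaged 109 ± 21.1 CPM (SD, n = 3) in homozygous, 139 ± 29.9 CPM (n = 4) in heterozygous and 153 ± 39.6 CPM (n = 4) in wt ExE, with log2 fold changes of -0.49 ± 0.26 (SE) and -0.11 ± 0.24. Furin, Smad2, Foxh1 and Acvr2b lay between -0.09 ± 0.25 (Smad2) and 0.36 ± 0.39 (Foxh1) in homozygous ExE, and between -0.23 ± 0.36 (Foxh1) and 0.06 ± 0.23 (Smad2) in heterozygous ExE. The median over the 10 members was -0.29 in homozygous and -0.36 in heterozygous ExE, against -0.02 and 0.01 over all genes. In heterozygous ExE 0 of the 10 members had groups apart (3.84% of all genes).

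**Figure D4:**
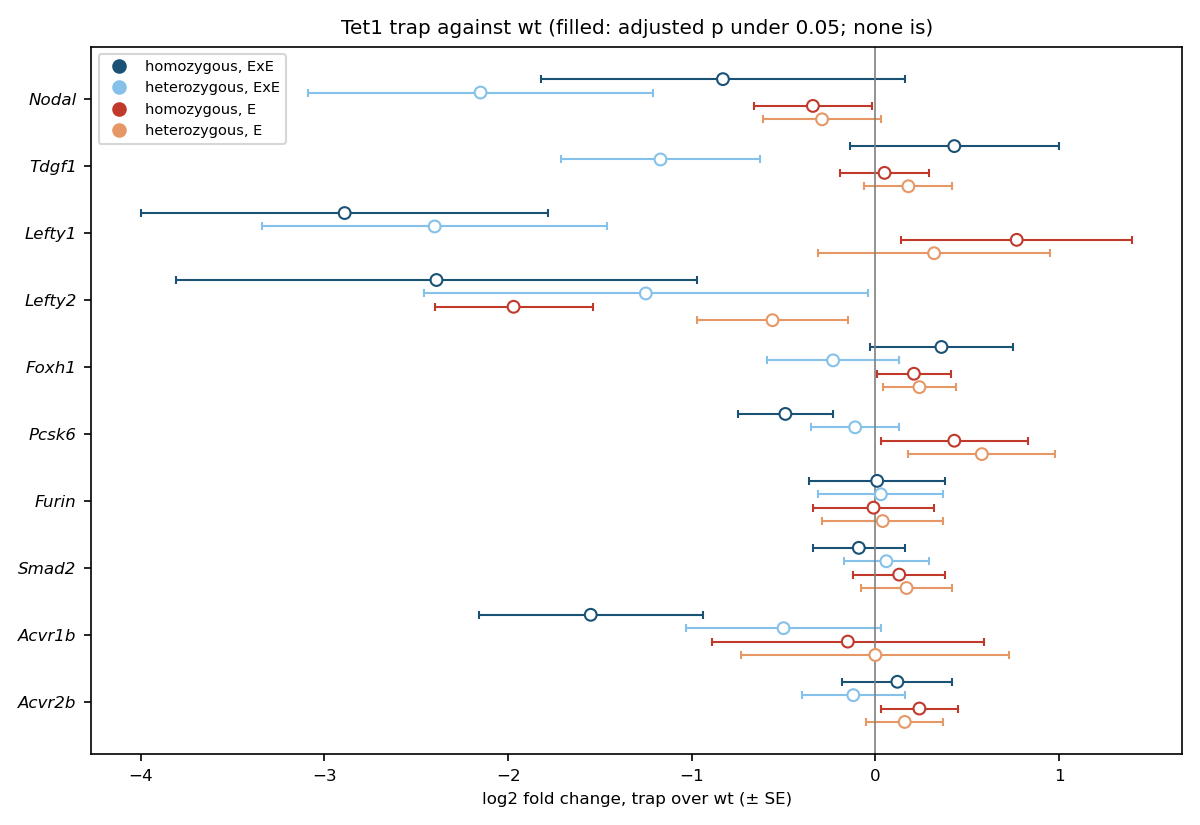
Log2 fold change of trap over wt (horizontal axis, ± SE) for each gene in homozygous and heterozygous ExE and in homozygous and heterozygous E; no point is filled because no adjusted p was under 0.05. Lefty2 in homozygous E lies at -1.97 ± 0.43, Acvr1b in homozygous ExE at -1.55 ± 0.61, and Furin and Smad2 within 0.2 of 0 in all 4 comparisons.

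Whether the homozygous difference itself varied between tissues was tested as an interaction in the fit of 23 libraries. Of the 10 members 0 passed (0% of all genes, with 3 genes called by DESeq2). The genes at an unadjusted p under 0.05 by edgeR were 416 of 13595, a share below 0.05. Lefty1 had the smallest p of the members, with a homozygous difference in ExE minus that in E of -3.64 ± 1.23 on the log2 scale (SE, edgeR adjusted p = 1, rank 42 by p). The separate fits of each tissue gave -2.89 in ExE and 0.77 in E. With Lefty1 and Lefty2 counted together the interaction was -1.54 (edgeR adjusted p = 1). Lefty2 itself stood at -0.36 ± 1.18 and Acvr1b at -1.38 ± 0.90.

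Of 35 other genes of the pathway in the table, 32 were tested between tissues and 30 between genotypes. In wt embryos 4 were higher (9.28% of all genes) and 10 lower (7.98% of all genes) in ExE than in E. In heterozygous embryos 4 were higher (12% of all genes) and 14 lower (14.9% of all genes). In homozygous embryos 4 were higher (9.12% of all genes) and 6 lower (7.66% of all genes). The higher ones included Smad3, the other receptor-activated Smad of the pathway, at 83.1 ± 7.08 CPM in wt ExE and 30.3 ± 4.72 CPM in wt E (SD, n = 4 each, log2 fold change 1.46 ± 0.24 SE, edgeR adjusted p = 0.000273). Smad7, an inhibitory Smad, was at 183 ± 36.6 CPM and 89.8 ± 5.80 CPM (1.02 ± 0.17, edgeR adjusted p = 0.000277), and Eomes, a T-box factor of trophoblast and streak, at 509 ± 80.3 CPM and 189 ± 61.3 CPM (1.43 ± 0.24, edgeR adjusted p = 0.000338). Fstl3, a secreted binding protein of activins, was at 8.36 ± 2.15 CPM and 0.675 ± 0.576 CPM (3.59 ± 1.01, edgeR adjusted p = 0.0171). The lower ones included Tgif1, a nuclear repressor of Smad-driven transcription, at 74.2 ± 24.4 CPM in wt ExE and 196 ± 26.8 CPM in wt E (-1.40 ± 0.20, edgeR adjusted p = 8.7e-05), and Mixl1, at 5.72 ± 2.29 CPM and 60.4 ± 59.2 CPM (-3.40 ± 0.75, edgeR adjusted p = 0.00356).

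By role, each group of genes but the convertases held some that were lower in heterozygous ExE, where 14.9% of all genes were. The shares of all genes given above for each genotype and direction apply to the counts by role too. Of 10 targets, 4 were lower and 1 higher in wt ExE, 6 and 1 in heterozygous ExE, and 2 and 1 in homozygous ExE. Of 11 transducers and nuclear regulators, 4 were lower and 2 higher in each genotype, and of 2 ligands 1 was lower in wt and 2 in heterozygous ExE. Smad3, Smad7, Eomes and Tgif1 were past the threshold in all 3 genotypes, Smad3 at 1.89 ± 0.25 (SE) in homozygous and 1.90 ± 0.24 in heterozygous embryos and Tgif1 at -1.87 ± 0.20 in heterozygous embryos. Fgf8, a growth factor of the streak, was lower at -3.79 ± 0.59 and Pmepa1, a feedback inhibitor of TGF-beta signalling, at -2.43 ± 0.41 in heterozygous ExE. Pmepa1 at -1.63 ± 0.45 and Trim33, a ubiquitin ligase that acts on Smad complexes, at -0.90 ± 0.26 were lower in homozygous ExE.

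Between genotypes 0 of the 30 other pathway genes were called in any of the 4 comparisons (0% to 0.0161% of all genes). Their median log2 fold change was -0.08 in homozygous E, -0.13 in heterozygous E, -0.10 in homozygous ExE and -0.18 in heterozygous ExE. In homozygous E the smallest p-values belonged to Mixl1 (-3.33 ± 0.83 SE), to Gdf3, a ligand of the family that also uses Tdgf1 (1.37 ± 0.34), and to Smad3 (-0.77 ± 0.29), with edgeR adjusted p = 0.826, 0.826 and 0.961. Gdf3 averaged 27.7 ± 7.68 CPM in homozygous and 10.8 ± 1.95 CPM in wt E (SD, n = 4 each), groups that did not overlap, and 20.3 ± 8.34 CPM in heterozygous E (0.91 ± 0.34). Of the 30 genes, 3 had homozygous and wt E groups apart (4.43% of all genes did). The others were Fst (-0.55 ± 0.30) and Ski (-0.19 ± 0.16), both lower in homozygous E. In heterozygous E Gdf3 had the smallest p (edgeR adjusted p = 0.982) and was followed by Cer1, at 0 in all 4 heterozygous pools and 1.23 ± 0.892 CPM in wt.

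In homozygous ExE the smallest p belonged to Smad4, the shared partner of the receptor-activated Smads, at 118 ± 34.1 CPM (SD, n = 3) against 185 ± 26.8 CPM in wt (SD, n = 4; log2 fold change -0.65 ± 0.23 SE, edgeR adjusted p = 0.513). Smad4 was lowest in the libraries with steep slopes, at 80.6 CPM in homozygous ExE pool 3 and at 85.4 and 122 CPM in the steep E pools, and the part of those slopes in the difference was not tested. Next by p came Cer1, at 0 CPM in all 3 homozygous pools and 0 to 5.52 CPM in wt, and Eomes (-0.47 ± 0.20). In heterozygous ExE it was Lhx1, a target at 0.0266 ± 0.0532 CPM against 1.36 ± 1.13 CPM in wt, Fgf8 (-1.69 ± 0.63) and Pmepa1 (-1.10 ± 0.48), each with an edgeR adjusted p = 1.

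Smad2 and Acvr2b ran with the steepness of a library. In E, the libraries with steep slopes, homozygous pool 3 and heterozygous pool 4, had the lowest Smad2, 41.2 and 60.5 CPM against 61.1 to 96.5 CPM in the other 10 pools. They had the highest Acvr2b, 236 and 201 CPM against 109 to 165 CPM. In ExE, homozygous pool 3 had 52.8 CPM of Smad2 against 61.9 to 111 CPM in the other 10 pools, and 213 CPM of Acvr2b against 67.8 to 137 CPM. Foxh1, with a short transcript, was highest in these libraries too, at 74.2 CPM against 19.3 to 70.9 CPM in ExE and at 149 and 164 CPM against 80.3 to 140 CPM in E. Smad2 has 8781 bases of merged exons and 44.9% GC, Acvr2b 3928 bases and 54.4%, and Foxh1 1365 bases and 59.1%. Nodal, Tdgf1 and Lefty1 in those libraries lay within the range of the others. Homozygous E pool 3 had the lowest Lefty2 of the 12 E pools, 5.35 CPM, and the highest Furin, 42.3 CPM. Its Acvr1b was the lowest of E too, at 0.173 CPM, which rests on 1 count. Furin has 9178 bases of merged exons, a longest transcript of 5736 bases and 55.9% GC. Heterozygous E pool 4 had the highest Pcsk6 of E, 45.0 CPM, and also the most Elf5 of E, 35.9 CPM. The part of extra-embryonic RNA in that Pcsk6 level was not tested. Homozygous ExE pool 3 had the lowest Acvr1b of ExE, 1.37 CPM. The parts of transcript length and GC content in these levels were not tested. Acvr1b in homozygous ExE differed from wt by -1.45 without the steep libraries. Without the 3 libraries the Lefty2 difference in homozygous E was -1.82 (edgeR adjusted p = 0.109).

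**Figure D5:**
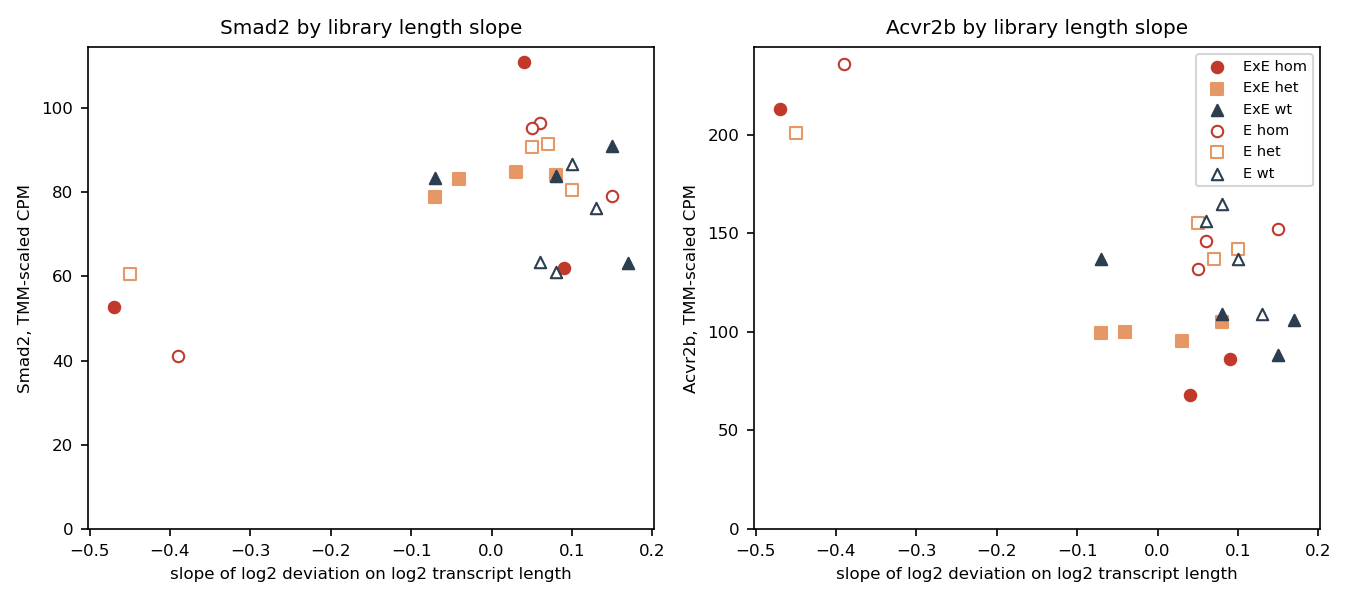
TMM-scaled CPM of Smad2 and of Acvr2b (vertical axes) against each library's slope of log2 deviation on log2 transcript length (horizontal axis), filled for ExE and open for E, coloured by genotype. The 3 libraries with slopes of -0.47 to -0.39 hold 41.2 to 60.5 CPM of Smad2 and 201 to 236 CPM of Acvr2b.

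Genes whose level ran most like a member's over the 12 E pools were taken as the 3 highest Pearson correlations of log2 CPM among 8918 genes with a mean log2 CPM of 3 or more (8919 for Lefty1, which is itself below that level). For Nodal they were Pacs2 (r = 0.85), Cyb5r3 (0.82) and H1f0 (0.81). For Lefty2 they were Lrp11 (0.89), Rsbn1 (0.89) and Gldc (0.88), for Lefty1 Supv3l1 (0.85), 3632451O06Rik (0.83) and Ppm1a (0.82), and for Tdgf1 Map3k9 (0.86), Rad1 (0.78) and AW209491 (0.78). None of these sets held another member. Among members, Nodal correlated at 0.48 with Tdgf1, 0.42 with Lefty1 and 0.24 with Lefty2, and Lefty1 with Lefty2 at 0.17. Smad2 and Acvr2b, the pair that ran with the steep slopes, stood at -0.78. These are descriptions over pools that share genotype and library properties.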

How the data were processed

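SMARTer-amplified RNA of pooled E6.25 tissue was sequenced as 75-base single-end reads, per the labels' protocols. Reads were trimmed with cutadapt 1.7.1 and aligned with TopHat2 2.0.12 to mm10 (GRCm38), per the submitters' processing notes. How reads were counted (program, annotation, strand) counts as not given in the sources used here. Raw counts per gene, not normalised, were deposited by the authors in 1 table, with 27 gene names altered into dates and none of them a member. Of its symbols 98.5% matched GENCODE M21.

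Counts were fitted with edgeR 4.0.16 in R 4.3.3 (filterByExpr with minimum count 10 and total 15, TMM, glmQLFit and glmQLFTest, two-sided). A fit of 1 tissue held its 3 genotypes, and tissue comparisons and the interaction used 1 fit of 23 libraries. The p-values were adjusted by Benjamini-Hochberg over every gene tested (threshold 0.05), fold changes use a prior count of 0.125, and log2 CPM a prior count of 2. Alternatives were DESeq2 1.42.0, limma-voom (limma 3.58.1), RLE scaling, no filter, the pool number as a block, merged Lefty counts, marker covariates and each library left out. Every pool counted as a replicate, and p-values measure the spread between pools. Genes sharing 75-base windows with others are uncertain.

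Same-numbered E and ExE pools of a genotype share litters in 3 of 4 replicates, per the labels, so the block pairs them. Which replicates these are is not given, so the block joins all same-numbered pools. Between tissues, deviations of same-numbered pools correlated at 0.37, 0.74 and 0.5 in homozygous pools 1, 3 and 4, all over 0.1. In heterozygous and wt pools they correlated at -0.12 to 0.19. Among genotype comparisons, the deviations of same-numbered pools correlated at 0.23, 0.42 and 0.24 in heterozygous and wt E, all over 0.1. In the other genotype comparisons they correlated at -0.35 to 0.26. Fold changes and p-values are from fits without the block, also in these comparisons, unless the block is named. The block was run as an alternative. The members and gene lists were chosen with earlier results of these data known. All 10 members are named in every comparison. Other pathway genes are named when past the threshold (at most 6 by p) or else as the 3 of smallest p, except 1 that is not reported here. Mesp1, Gsc, Fgf8, Wnt3, Pou5f1 and Elf5 were named as markers beside a result, and Fst and Ski for groups that lay apart.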

Additional observations from a re-analysis of the deposited data

Results flagged for a closer look

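In 4 of the 50 sets formed by a gene and a group of 4 pools, 1 pool lay far from the other 3 by Dixon's test, where chance gives about 1 in 20. Nodal was at 55.3 CPM in wt E pool 2, against 22.2 to 26.2 CPM in the other wt E pools. Tdgf1 was at 301 CPM in homozygous E pool 4, against 218 to 223 CPM in the others. Pcsk6 was at 93.7 CPM in wt ExE pool 1, against 168 to 179 CPM in the others, and that pool had the highest Pou5f1 of wt ExE, 302 CPM. Homozygous and heterozygous ExE pool 1, at 99.6 and 96.7 CPM of Pcsk6, had 36.6 and 42.7 CPM of Pou5f1. Furin was at 78.1 CPM in wt ExE pool 2, against 30 to 38.0 CPM in the others, and that pool had the lowest Pou5f1, 19.6 CPM. Their part in the tissue comparison was not tested beyond leaving each pool out.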

How the results depend on the processing

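The number of genes called in homozygous E was 2, against 17 by DESeq2, 0 with the replicate block, 4 without the 3 libraries with steep slopes, 1 with the visceral endoderm covariate, 0 with the primitive streak covariate and 0 to 1 with 1 pool left out (0 without wt pool 5, 1 without any other). Members called there were 0, and 1 (Lefty2) by DESeq2. In homozygous ExE 0 genes were called, against 12 by DESeq2, 1 with no filter and 0 to 2 with 1 pool left out (2 without homozygous pool 4). DESeq2 called 4 genes in heterozygous E, 25 in heterozygous ExE and 3 in the interaction, against 0 in each by edgeR. Between tissues in wt 2347 genes were called, against 3672 without the 3 libraries with steep slopes and 1502 to 2520 with 1 pool left out, lowest without ExE pool 2. In homozygous embryos 2282 were called, against 1009 with only the groups compared and 1311 to 2736 with 1 pool left out, lowest without ExE pool 1, and members called ran from 1 to 5. The cause of these differences was not tested.

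Signs turned for differences that were past the threshold in neither fit, except Lefty1 between tissues in wt, at -1.94 with the Lefty counts merged (edgeR adjusted p = 0.027). Merging gave -1.10 for Lefty1 in homozygous and -0.39 in heterozygous E. With the block, Acvr2b was at -0.21 and Furin at -0.01 in homozygous ExE, and Furin at -0.16 in heterozygous ExE. Between tissues the block gave -0.15 for Lefty1 in wt, -0.06 for Smad2 in heterozygous, and 0.07 for Smad2 and 0.16 for Acvr1b in homozygous embryos, and in the interaction 0.06 for Nodal and -0.07 for Furin. With limma-voom, Nodal was at 0.05 and Acvr2b at -0.09 in homozygous ExE, Lefty1 at -0.26 between wt tissues and Nodal at 0.38 in the interaction. Lefty1 between wt tissues was at -0.02 with DESeq2 and with RLE scaling and at -0.01 with only the groups compared.

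Without the steep libraries, Acvr1b was at 0.21 in homozygous E, Furin at -0.06 in heterozygous E, Acvr2b at -0.52, Furin at -0.18 and Smad2 at 0.11 in homozygous ExE, Smad2 at -0.09 between heterozygous tissues and Foxh1 at -0.04 in the interaction. With the endoderm covariate, Furin was at 0.04 in homozygous E, Tdgf1 at -0.02 in heterozygous E, Nodal at 0.22 and Furin at -0.02 in homozygous ExE, and Foxh1 at 0.15, Furin at -0.03 and Smad2 at -0.03 in heterozygous ExE. With the streak covariate, Furin was at 0.40 in homozygous E, Nodal at 0.22 and Furin at -0.02 in homozygous ExE, and Foxh1 at 0.23, Furin at -0.24 and Smad2 at -0.08 in heterozygous ExE.

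With 1 pool left out, the ranges that crossed 0 were, in homozygous E, -0.43 to 0.22 for Acvr1b, -0.30 to 0.17 for Furin, -0.09 to 0.21 for Tdgf1 and -0.50 to 0.06 for Nodal. In heterozygous E they were -0.14 to 0.22 for Furin, -0.20 to 0.57 for Lefty1, -0.01 to 0.35 for Tdgf1 and -0.43 to 0.11 for Nodal. In homozygous ExE they were -0.52 to 0.39 for Acvr2b, -0.18 to 0.42 for Furin, -0.52 to 0.11 for Smad2 and -0.47 to 0.79 for Tdgf1. In heterozygous ExE they were -0.19 to 0.44 for Furin, -0.46 to 0.16 for Foxh1, -0.04 to 0.13 for Smad2 and -0.29 to 0.01 for Pcsk6. Between tissues they were -0.44 to 0.16 for Smad2 in homozygous, -0.07 to 0.10 for Smad2 in heterozygous and -0.55 to 0.32 for Lefty1 in wt embryos. In the interaction they were -0.88 to 0.33 for Nodal, -0.16 to 0.44 for Furin, -0.13 to 0.55 for Foxh1, -0.75 to 0.21 for Acvr2b, -3.41 to 0.25 for Lefty2 and -0.48 to 0.77 for Tdgf1.

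With the pool number as a replicate block, 0 members were called between genotypes, the numbers of members called between tissues were 5 in homozygous, 6 in heterozygous and 4 in wt embryos, and of the tissue calls those of Lefty1 and Acvr2b given above changed. Of the single-gene values under alternatives, 98 turned sign, 18 lost a call and 13 gained one, and 1277 did none of these. Depth limits Acvr1b and both Lefty genes in ExE, at 0 to 94 counts per library, and Acvr1b in E, at 1 to 36 counts. It limits Nodal in ExE too, at 3 to 57 counts in heterozygous pools, 24 to 69 in homozygous pools, and 7 and 23 in wt pools 2 and 5.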
